A study of Rattus norvegicus with 11 samples.

Results

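Of the 12037 genes in the gene table, 95 were low in vehicle-injected mutant retina and higher in both halofantrine-injected mutant retina and wild-type (WT) retina. A gene was a member when the lowest of its 4 halofantrine values and both of its WT values exceeded the highest of its 5 DMSO values on the authors' normalized scale. The values of all 3 groups therefore chose the members, and the differences from DMSO given below describe that choice and were not tested as findings. The rule set no order between halofantrine and WT, but the values of both groups entered it, so that comparison is also given as a description, beside the shares over all genes.

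The P23H rat carries a transgene for rhodopsin, the light-absorbing pigment of rod photoreceptors, with a histidine in place of the proline near its amino end. The mutant protein misfolds, rods degenerate and cones are lost after them, as in the dominant human disease retinitis pigmentosa. Halofantrine is an antimalarial drug. A gene that is low in the diseased retina and nearer to WT after treatment can reflect more RNA per cell or more surviving cells of a type, and in whole-retina RNA these cannot be told apart.

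PolyA RNA was sequenced from the retinas of 11 female rats with different animal numbers. Halofantrine (n = 4) or its vehicle DMSO (n = 5) was given to hemizygous P23H rats of strain P23HxLE, bred from transgenic P23H line 1 and Long Evans animals, as bilateral intravitreal injections of 5 µL. The study's methods give 20 to 100 µM for the injected volume in general, with no separate value for the vehicle. The sources used here do not tie a dose or an age to a single RNA library. The WT group (n = 2) was of strain SDxLE and untreated, and the titles of both its libraries end in L where those of all 9 P23H libraries end in R. Genotype, strain background, injection and whatever this letter marks all separate WT from DMSO and cannot be told apart. The animal numbers of the halofantrine group all came before those of the DMSO group, so any difference in litter or date between these animals cannot be told apart from treatment.

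Libraries held 11685200 to 34198500 estimated counts (to 6 digits), and the smallest estimated count of any member in any library was 59. WT values rest on 2 libraries, and 2 of the P23H libraries stood apart from the rest. In DMSO replicate 3 and halofantrine replicate 1, 3.41% and 3.79% of the transcript counts lay outside the gene table, against 1.58% to 1.903% in the other 9 libraries. With both left out, the common biological coefficient of variation fell from 0.266 to 0.134. It was 0.173 with only DMSO replicate 3 left out and 0.259 with only halofantrine replicate 1 left out. The files identify genes by Ensembl number only, and the reference table paired 0 of them with a symbol. Roles, cell type markers, pathway lists, positions and promoters were therefore not analysed here, the retinal origin was not checked against marker genes, and 4 members are named by identifier while the others are named by the rank of their gap, defined next.

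The gap, the lowest halofantrine value over the highest DMSO value, was small for most members. Its median was 2.801% and it ran from 0.0699% to 98.8%. It exceeded 10% in 10 members and 20% in 3, and it was under 1% in 19. The member closest to the limit had a lowest halofantrine value of 25.95 and a highest DMSO value of 25.94, and the nearest gene outside it had a margin of −0.0469%. Halofantrine values lay wholly above DMSO values in 164 genes (1.36% of all genes), of which the members were 57.9%. Both WT values lay above all DMSO values in 3259 genes (27.1%), of which the members were 2.92%. The members themselves were 0.789% of the table.

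The members were genes of ordinary abundance. Their mean normalized signal over the 11 libraries had a median of 32.7 and ran from 6.53 to 1530. The median over the 12010 genes above 0 in every library was somewhat higher, at 40.4, with quartiles of 19.6 and 84.4. The mean signal was over 100 in 20 members, over 1000 in 3 and under 10 in 3. Estimated counts lay more than 0.01 from a whole number in at least 1 library in 30 members (31.6%) and in 34.7% of all genes, as can happen where reads fit more than 1 gene.

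**Figure D1:**
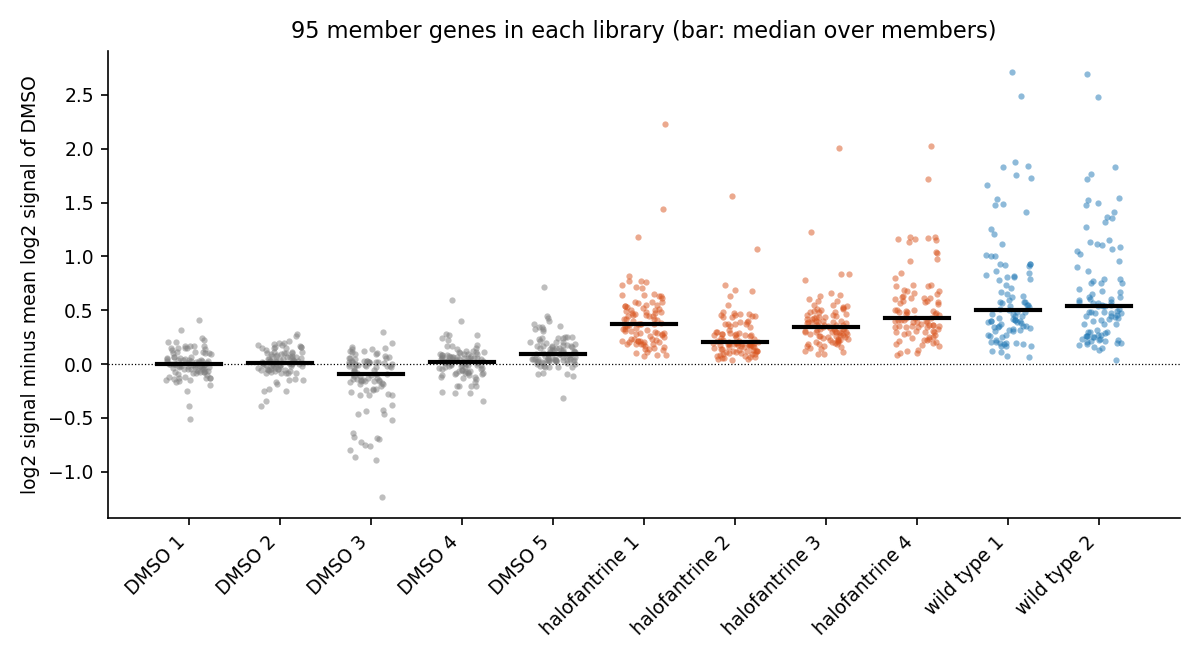
Log2 normalized signal of the 95 members in each of the 11 libraries, minus the member's mean over the DMSO libraries. Each point is 1 gene and each bar the median over members. Halofantrine medians run from 0.20 in replicate 2 to 0.43 in replicate 4, and the WT medians are 0.50 and 0.54.

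ENSRNOG00000031706 had the largest gap. Its normalized signal was 9.98, 12.6, 14.9, 15.7 and 19.4 in the DMSO retinas, 38.5, 41.8, 57.0 and 57.6 in the halofantrine retinas, and 32.8 and 36.4 in WT. The 3 groups did not overlap, and halofantrine was the highest of them. The fitted halofantrine difference from DMSO was 1.73 ± 0.188 (log2, SE), and it was the only gene of 12031 tested (0.00831%) to pass in edgeR's quasi-likelihood test, at an adjusted p of 0.0231. Because this contrast chose the members, the value is a description. The call was lost, with adjusted p from 0.0501 to 0.160, when DMSO replicate 1, 2 or 4, halofantrine replicate 2, 3 or 4 or either WT replicate was left out, and when only DMSO and halofantrine were fitted. Against WT the fitted difference was 0.54 ± 0.247 (adjusted p = 0.165, edgeR). It did not pass, and it too is a description, since the rule had used the values of both groups. Counts of this gene were fractional, by the same limit, in all 11 libraries.

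ENSRNOG00000063181 had the second largest gap, 26.3%. Its signal was 6.58 to 7.72 in DMSO (median 7.26), 9.75, 10.5, 10.9 and 11.9 with halofantrine, and 15.01 and 15.6 in WT. Halofantrine values lay between the other groups without touching either. The fitted log2 difference from WT was −0.46 ± 0.158, with an adjusted p of 0.0786 (edgeR). Halofantrine and WT values had both chosen this gene, so the difference and its adjusted p are a description. Among the alternatives, the adjusted p was under 0.05 only without DMSO replicate 3 (0.0209), without that library and halofantrine replicate 1 (0.0136) and by DESeq2 (0.0199). The gene's low level and its fractional counts in 9 of the 11 libraries limit these values.

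Of the other 8 members with a gap over 10%, halofantrine stayed below WT on average in 5. In these, gap ranks 3, 4, 6, 8 and 9, the mean signal in WT exceeded that with halofantrine. The member of gap rank 3 had a mean of 27.3 ± 2.20 (SD, n = 5) in DMSO, 38.5 ± 2.71 (n = 4) with halofantrine and 63.6 ± 12.3 (n = 2) in WT. In the member of gap rank 6 the means were 9.43 ± 1.24, 13.4 ± 1.06 and 25.2 ± 2.54. In the members of gap ranks 5, 7 and 10 halofantrine had the highest mean. Gap rank 5 read 37.7 ± 4.31 in DMSO, 63.6 ± 14.2 with halofantrine and 45.2 ± 0.306 in WT, with halofantrine replicate 4 at 83.9 and the other halofantrine replicates between 51.2 and 61.2.

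ENSRNOG00000004928 and ENSRNOG00000017260 had the largest differences between DMSO and WT, and were picked after their values were seen. ENSRNOG00000004928 had a signal of 4.52 to 6.36 in DMSO (median 4.84), 6.80, 7.24, 7.52 and 8.55 with halofantrine, and 33.2 and 33.7 in WT. ENSRNOG00000017260 read 9.95 to 15.6 in DMSO (median 12.1), 15.98, 16.6, 17.2 and 17.3 with halofantrine, and 67.6 and 68.1 in WT. In both genes the treated retinas stayed far nearer to DMSO than to WT, at 20.1% and 18.6% of the distance on the log2 scale. The fitted log2 difference between halofantrine and WT was −2.11 in ENSRNOG00000004928 and −1.98 in ENSRNOG00000017260, given with no test since high WT values picked these genes.

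**Figure D2:**
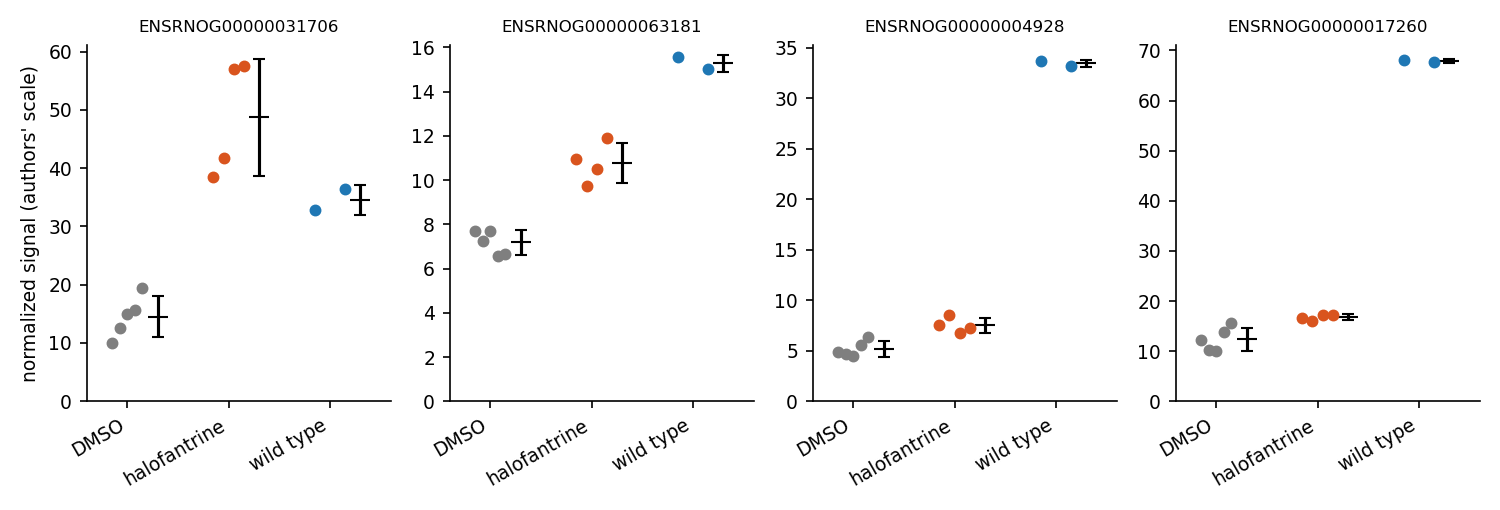
Normalized signal of the 4 members named by identifier in each library, from 0. Points are libraries, and the bars beside them give mean and SD (DMSO n = 5, halofantrine n = 4, WT n = 2). In ENSRNOG00000031706 halofantrine lies above WT, and in the other 3 genes it lies between DMSO and WT.

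The 3 most abundant members had a mean signal over 1000. The most abundant one, of gap rank 52, read 570 in DMSO replicate 3 and 948 to 1268 in the other DMSO retinas. With halofantrine it was 1302, 1305, 2239 and 3153, and in WT 1826 and 2043. Its halofantrine values thus spanned the WT values, with 2 below and 2 above. The member of gap rank 35 was at 444 in DMSO replicate 3, at 850 to 1040.5 in the other DMSO retinas, at 1090 to 1582 with halofantrine and at 2733 and 2886.5 in WT. The member of gap rank 92 was at 765 to 951 in DMSO, 955 to 1126 with halofantrine and 1427 and 1526 in WT.

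Over all members, the mean log2 signal with halofantrine was higher than in DMSO by a median of 0.34 (range 0.11 to 1.76). In WT it was higher than in DMSO by a median of 0.50 (0.05 to 2.70). Over the 12010 genes above 0 in every library these 2 medians were −0.02 and 0.02. The halofantrine difference exceeded 1 in 2 members and the WT difference in 20. One of those 2 was ENSRNOG00000031706, and the other, of gap rank 16, read 5.08 in DMSO replicate 3, 10.2 to 19.6 in the other DMSO retinas, 21.3 to 27.0 with halofantrine and 33.2 and 37.8 in WT. In the member of gap rank 62, singled out after its values were seen, halofantrine replicate 1 read 37.8 while the other 3 halofantrine retinas read 10.8 to 11.1, close to the highest DMSO value of 10.6. Expressed as a share of the WT difference, the halofantrine difference had a median of 67.1%. It was under 50% in 34 members, from 50% to 100% in 37 and over 100% in 24. The 2 differences share the DMSO libraries, so this share was given with no test.

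**Figure D3:**
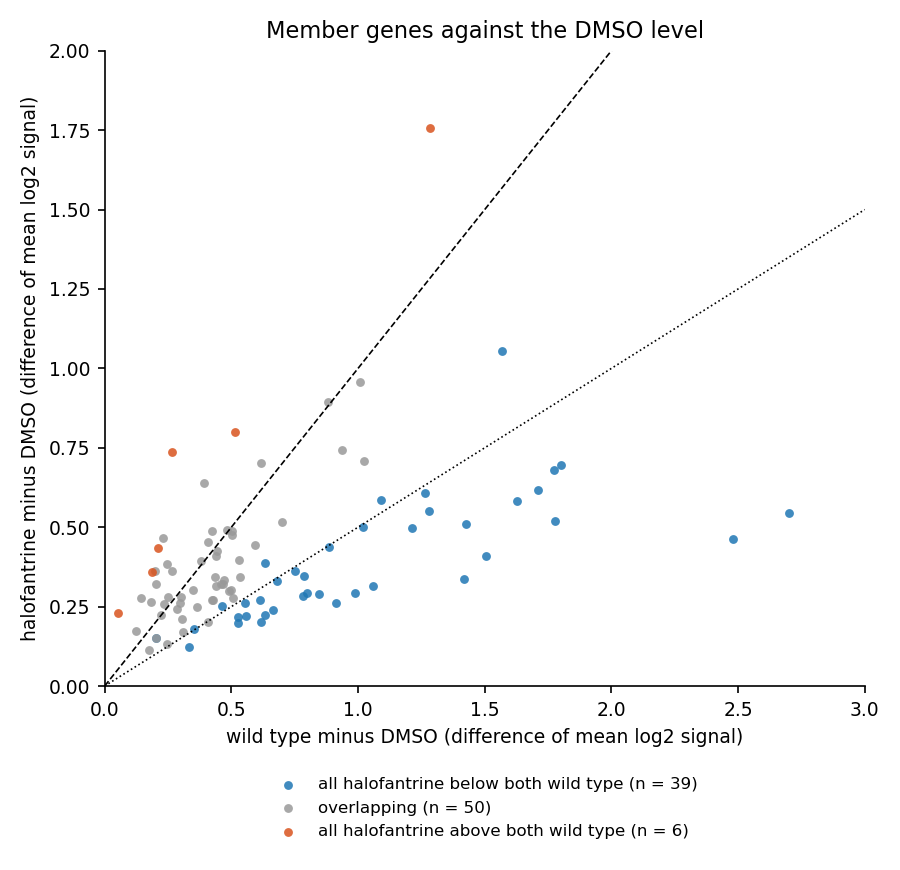
Halofantrine minus DMSO against WT minus DMSO for the 95 members, each as a difference of mean log2 signal. The dashed line marks equal differences and the dotted line a halofantrine difference at 50% of the WT difference. The 39 members with all halofantrine values below both WT values lie under the dashed line and the 6 with all above it lie over it.

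Halofantrine was below WT in more members than it was above, a comparison in which the values of both groups had chosen the genes. All halofantrine values lay below both WT values in 39 members (41.1%, against 25.7% of all genes), above both in 6 (6.32%, against 23.2%), and overlapped them in 50. By edgeR, 21 members were lower with halofantrine than in WT (22.1%, against 7.58% of the genes tested) and 0 were higher (against 5.55%). At an unadjusted p under 0.05 by edgeR, 29 were lower and 2 higher, where 15.4% of the genes tested were lower and 15.9% higher. Limma and DESeq2 called 17 and 29 members, all lower, where they called 6.09% and 12.6% of all genes lower. The fitted log2 differences of the 21 ran from −2.11 to −0.37, and all 21 belonged to the 39 that did not overlap. The member median was −0.11 and the median over all genes tested was 0.05.

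The rule itself favors this direction, since it keeps genes with high WT values. Of the 3164 tested genes with both WT values above DMSO in which halofantrine was not wholly above DMSO, 877 (27.7%) were lower with halofantrine than in WT and 0 were higher, and their median fitted difference was −0.40. These genes were set apart from the members by their halofantrine values, so the 2 shares were not compared. The number of members called moved with single libraries, as did the share of all genes called lower. It was 3 without WT replicate 1 (1.45% of all genes lower) and 2 without WT replicate 2 (1.35%). It was 11, of which 1 was higher, without halofantrine replicate 2 (5.43%) and 12 without halofantrine replicate 3 (4.15%). Without DMSO replicate 3 it was 32 (15.9%), and with both libraries that stood apart left out it was 35 (23.2%).

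The 6 members in which halofantrine lay wholly above WT had gap ranks 1, 5, 13, 18, 44 and 49. Their fitted log2 differences from WT ran from 0.22 to 0.54, and the smallest adjusted p was 0.0774 (edgeR). In the member of gap rank 49, DMSO values were 134 to 140.3 and WT values 140.9 and 143, while halofantrine gave 144, 156, 165 and 179.6. WT barely separated from DMSO in this gene, and halofantrine exceeded both.

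Against WT, DMSO was lower in 48 members by edgeR (10.3% of the genes tested were lower), a contrast that the rule had used. Without WT replicate 1 or 2 this number was 28 or 22 (3.48% or 3.01% of all genes lower), and without both libraries that stood apart it was 74 (22.8%). In halofantrine against DMSO, 81 members had an unadjusted p under 0.05, all of them higher, where 6.08% of all genes tested were higher and 4.80% lower at that limit, and 1 passed after adjustment. DESeq2 called 12 members, all higher, and 0.199% of all genes higher.

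Single libraries placed many members at the edge of the rule. Halofantrine replicate 2 was the lowest halofantrine library in 61 members (64.2%, against 24.8% of the 12010 genes above 0 in every library). DMSO replicate 5 was the highest DMSO library in 47 (49.5%, against 21.3% of those genes). DMSO replicate 3 was the lowest DMSO library in 49 members (51.6%, against 34.0%). It was the highest in 10 (10.5%, against 38.8% of those genes), where the rule keeps genes with low DMSO values. In 16 members it lay more than 0.5 log2 below the mean of the other DMSO libraries. The share over all genes was not counted for that limit, so the 16 are not read as a trait of the members. In those 16, the median difference between halofantrine and the other 4 DMSO libraries was 0.43, and in the other 79 members it was 0.29.

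Each library was also left out in turn and the rule applied to the other 10, which gave the left-out library no part in the choice. Without halofantrine replicate 2 the rule chose 354 genes, and in 26.8% of these replicate 2 lay above every DMSO value. Among the 3259 genes chosen on WT and DMSO alone, it did so in 12.5%. For halofantrine replicates 1, 3 and 4 the shares were 70.9%, 68.8% and 86.4%, against 49.0%, 23.9% and 24.2%. Each left-out halofantrine library lay above DMSO more often in genes chosen with the other halofantrine libraries than in genes chosen without any. The former are a part of the 3259 and were chosen further by more values above the same highest DMSO value. That step favors genes with low DMSO values and can raise the share by itself. These shares therefore cannot show whether the halofantrine libraries repeat each other, and are given with no test.

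Leaving out DMSO replicate 2, 3 or 5 raised the number of genes chosen to 230, 208 or 222, and the left-out library then lay below every halofantrine and WT value in 41.3%, 45.7% or 42.8% of them. Among genes chosen on WT and the other 4 DMSO libraries alone, it did so in 17.3%, 37.2% or 20.1%. Only in the first set did the choice also place every halofantrine value above the other 4 DMSO libraries. Lying below every halofantrine value was thereby made easier in that set, so the shares are given with no test. For DMSO replicates 1 and 4 the shares were 79.8% and 84.8%, against 24.7% and 17.9%. The left-out WT replicates lay above every DMSO value in 87.2% and 88.8% of the genes chosen, against 65.2% and 66.5% of genes chosen on halofantrine and DMSO alone. Here too the first genes were a part of the second, chosen further against the same DMSO values, and no test was made. With both libraries that stood apart left out, 267 genes met the rule. Leaving out a library can only relax the rule, so all members stay in each of these sets.

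**Figure D4:**
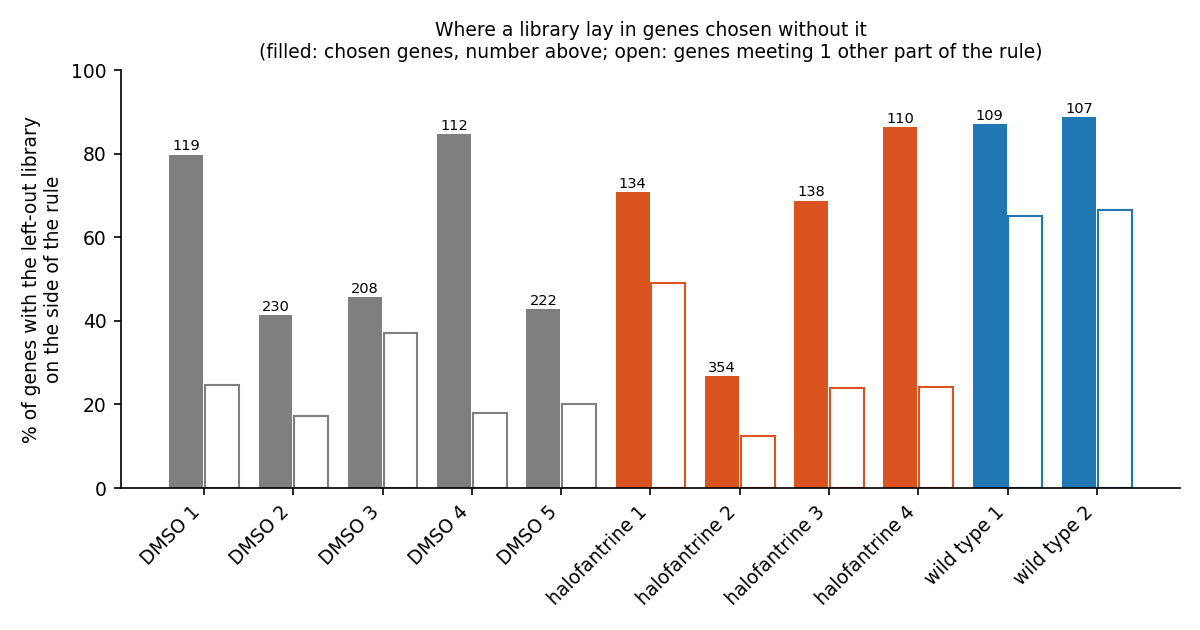
Share of genes, in percent, in which a left-out library lay on the side that the rule asks for. Filled bars cover genes chosen on the other 10 libraries (number above the bar), and open bars cover genes chosen by 1 part of the rule, WT above the DMSO libraries used (for DMSO and halofantrine libraries) or halofantrine above DMSO (for WT). Halofantrine replicate 2 has the lowest filled bar, 26.8%. Genes of the filled bars met more parts of the rule than those of the open bars, so the bars were not tested against each other.

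Membership also moved with the scaling of the libraries. The rule was met by 61 genes on plain CPM (counts scaled to the library total), 95 on TMM values, 84 with DESeq2 size factors and 123 with upper quartile scaling. Of the 95 members, 54, 73, 78 and 83 were among these, and 47 met the rule under all 5 scalings.

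The transcript table gave a view of how the members were put together. In 41 members the gene's counts equaled those of 1 transcript in every library, in 28 they equaled the sum of 2 transcripts, and 26 were not resolved. In 17 of the 28 pairs the smaller transcript held at least 10% of the gene. Within these 17, exactly 1 transcript met the whole rule in 7 genes. In the other 10 genes neither transcript was wholly above DMSO with halofantrine, so in them the separation was present in the sum and not in its parts. The same counts were not made for other genes, so they are not read as a trait of the members. Division of reads between similar transcripts by kallisto is itself uncertain.

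Members of gap ranks 15 and 83, picked after their values were seen, show how a sum could meet the rule. In gap rank 15, the gene read 204 to 218 in DMSO, 237 to 309 with halofantrine and 363 and 367 in WT. Its smaller transcript had a mean of 61.5 ± 46.6 (SD, n = 5) in DMSO, 61.8 ± 68.8 (n = 4) with halofantrine and 187.5 ± 12.3 (n = 2) in WT. Its larger transcript had means of 149.9 ± 50.6, 208 ± 77.2 and 177 ± 9.83. The WT difference lay mostly in the smaller transcript, and the halofantrine values overlapped those of DMSO in each transcript.

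In gap rank 83 the smaller transcript was at 4.11 to 17.8 in DMSO, 3.89 to 18.2 with halofantrine and 37.4 and 44.3 in WT. The larger one had a mean of 61.96 ± 5.28 in DMSO, 72.0 ± 8.95 with halofantrine and 54.0 ± 1.83 in WT. Here the transcript with the higher halofantrine mean was lower in WT than in every DMSO library, the WT excess lay in the smaller transcript, and only the sum of both met the rule.

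**Figure D5:**
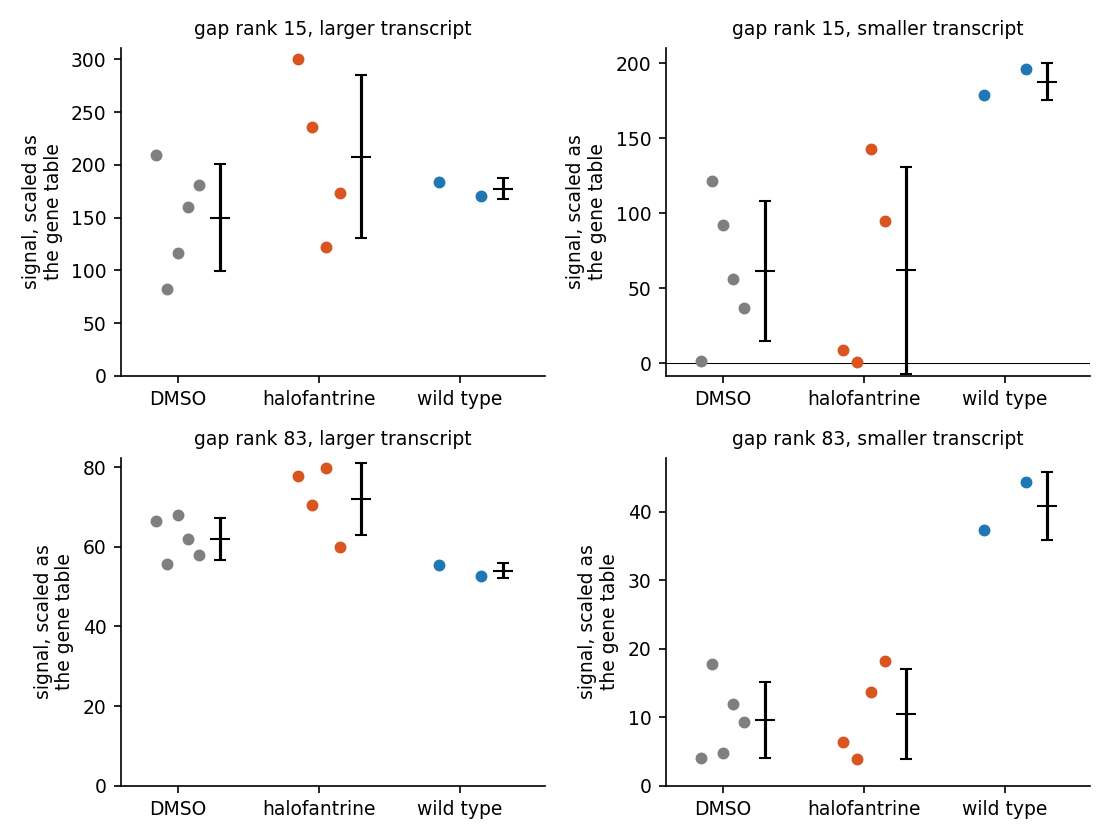
Signal of the larger and the smaller transcript of the members of gap ranks 15 and 83, scaled as the gene table, in each library, with mean and SD beside the points. In both genes the smaller transcript is higher in WT than in every P23H library, and its halofantrine values overlap those of DMSO.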

How the data were processed

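Strand-specific mRNA libraries (TruSeq) were made from retinal RNA with an integrity number of at least 9. Per the study's methods, the authors quantified reads against the Ensembl rat transcriptome with kallisto and summed transcripts to genes with tximport. The authors deposited estimated counts per gene and transcript, and a normalized gene table used here as a signal. Its library sums differed (959061 to 1099860), as those of plain CPM would not, although those of CPM with factors such as TMM can. Their table of fold changes and p-values was not used. Columns of per-sample values that could not be mapped numbered 0.

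Members were counted on the deposited signal. Estimated counts were rounded, filtered with filterByExpr (12031 of 12037 genes kept, all 95 members among them) and fitted over the 11 libraries in R 4.3.3 with edgeR 4.0.16 (TMM, quasi-likelihood F test, Benjamini-Hochberg adjustment over all genes tested, threshold 0.05). Limma 3.58.1 (voom) and DESeq2 1.42.0 were alternatives, and the edgeR script was tested on simulated data. Replicates were separate animals. Transcripts were matched to members where counts summed within 0.02 in every library. The members, lists and comparisons were chosen with earlier results of these data known. Named members were the 2 with the largest gap and, added after values were seen, the 2 with the largest WT difference. Gene lists, markers and promoter motifs needed symbols and were not run.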

Additional observations from a re-analysis of the deposited data

Results flagged for a closer look

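In 58 sets of values from the DMSO or halofantrine group (23 members and 4 transcripts described above and 2 library measures), 5 had 1 library whose distance to its nearest neighbor exceeded Dixon's limit for the group size, where a rate of 1 in 20 would give 2.9. Of these, 2 concerned the share of transcript counts outside the gene table, which was 3.41% in DMSO replicate 3 (1.71% to 1.903% in the other DMSO libraries) and 3.79% in halofantrine replicate 1 (1.58% to 1.70% in the others). Another 2 were in the member of gap rank 8, with a normalized signal of 119 in DMSO replicate 3 (210.2 to 245 in the others) and of 306 in halofantrine replicate 3 (276 to 279.7 in the others). The last was the signal of 37.8 in halofantrine replicate 1 for the member of gap rank 62 (10.8 to 11.1 in the others). Over all 95 members and both groups, 11 of 190 sets passed the limit, where that rate would give 9.5, and 8 of the 11 were low values of DMSO replicate 3. The rate of 1 in 20 is only a reference, and neither count was tested against it. Some sets, such as gap rank 62, were picked after their values were seen. The 2 library shares had already set their libraries apart. The rule also limits DMSO values from above and halofantrine values from below.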

How the results depend on the processing

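No paired analysis was possible because the titles carry an animal number and a letter that is the same within a genotype, and the replicate numbers used here pair nothing. The number of members was 61 on plain CPM, 267 without DMSO replicate 3 and halofantrine replicate 1, and 107 to 354 when 1 library was left out. Genes called in halofantrine against DMSO numbered 1 in the edgeR fit, 34 by DESeq2, 2 without those 2 libraries, 0 by edgeR (981 at an unadjusted p under 0.05) when only those groups were fitted, and 0 to 2 when 1 library was left out. DMSO against WT gave 2548 genes, 5387 without those 2 libraries and 519 to 3646 with 1 left out. Halofantrine against WT gave 1580 genes, 1024 by limma, 2491 by DESeq2, 5472 without those 2 libraries and 211 to 3588 with 1 left out. Members lower than WT numbered 21 (7.58% of all genes tested were lower), 13 with upper quartile factors (5.65%) and 35 without those 2 libraries (23.2%). With 1 P23H library left out they numbered 10 to 32 (4.15% to 15.9%), and 1 member was higher without halofantrine replicate 2. Over 18 alternatives the median member difference ran from 0.30 to 0.38 for halofantrine minus DMSO, whose sign the rule fixed, and from −0.18 to −0.08 for halofantrine minus WT. The alternatives for the members called against DMSO, and limma, DESeq2, no filter or a fit of only those groups for the medians, were added after seeing the data, as were upper quartile factors, no filter and the fit of only those groups for the named members. Causes were not tested. With 2 WT libraries, values against WT have little replicate support, and fractional counts limit 30 members.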
